A study of Mus musculus with 8 samples.

Results

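The subject here is the set of nuclear genes that encode the subunits of the mitochondrial respiratory chain and of ATP synthase, measured by RNA-seq in mouse embryonic stem cells (ESCs) and in the neural precursor cells (NPCs) derived from them. Members were taken by gene symbol, as every gene whose name begins with Nduf followed by a, b, c, s or v and a number, with Uqcr, with Cox and a number from 4 to 8, or with Atp5, together with *Sdha*, *Sdhb*, *Sdhc* and *Sdhd*. Symbols marked as pseudogenes were left out. This rule found 87 of the 26263 genes in the count tables, 38 in complex I, 4 in complex II, 8 in complex III, 20 in complex IV and 17 in complex V. *Ndufa4* and *Ndufa4l2*, which carry complex I names, were grouped with complex IV, where the *Ndufa4* protein is found. Expression high enough for a test was reached by 82 members, 37, 4, 8, 16 and 17 in the same order. *Cyc1* and *Ndufab1*, which also encode subunits, fall outside the symbol rule and are described with the related genes.

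The respiratory chain passes electrons from NADH through complex I, and from succinate through complex II, to coenzyme Q, then through complex III and cytochrome c to complex IV, where oxygen is reduced. Complexes I, III and IV pump protons across the inner mitochondrial membrane, and ATP synthase, called complex V, makes ATP as the protons flow back. Most subunits are encoded in the nucleus, and several of those of complexes IV and V have isoforms from separate genes with tissue-restricted expression. ESCs are known to draw on glycolysis, and neurons on oxidative phosphorylation.

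Cells came from reciprocal crosses of C57BL/6 and JF1 mice, JF1 being an inbred strain of Mus musculus molossinus. B/J cells (line BJE2, genotype C57BL/6 x JF1) and J/B cells (line JBE6, genotype JF1 x C57BL/6) were each profiled as undifferentiated ESCs, kept in medium with LIF, BMP4 and an inhibitor of GSK3-β, and as NPCs at day 12 of in vitro corticogenesis. Each of these 4 groups had 2 replicates. Each cross is represented by 1 male line, so that cross and line cannot be told apart, and no source used here says that the replicates were separate differentiations, so that p-values measure the spread between these libraries. The question addressed here is how the subunits differ between the ESC and NPC stages and between the crosses.

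Libraries held between 22537138 and 32706015 reads counted on genes, and a single read was worth between 0.0306 and 0.0444 CPM, the usual scale of a gene's counts relative to the total of its library. The stage labels were checked against marker lists on TMM-normalised CPM, the scale that corrects each library's total by a factor estimated over most genes. All 10 pluripotency markers were lower in NPCs, with summed levels of 6490 to 10600 in ESC libraries and 209 to 473 in NPC libraries, and 9 of 10 neural precursor markers were higher (346 to 456, then 730 to 1730). Markers of other cell types moved with the stage as well. All 10 trophoblast markers were higher in NPCs (summed level 14.9 to 88.8 in ESCs and 1150 to 3150 in NPCs), as were 9 of 10 fibroblast markers (47.3 to 126, then 941 to 2170) and 9 of 10 neuron markers (326 to 467, then 346 to 1820, with overlap of the stages), of which the tenth was lower, and their part in the results below was not tested. In such bulk samples, fewer cells of a type and less RNA per cell cannot be told apart.

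Promoter sequences give a first view of what the members share beyond their names. NRF-1, GABPA (also known as NRF-2) and YY1 are transcription factors known to act on many nuclear respiratory genes, and the letters GCGCATGCG, CCGGAAGT and AAGATGGC, taken as motif cores, were searched on both strands of the 300-base RefSeq promoter windows (build GRCm38.p6) of the 69 members that had one. The NRF-1 core was found in 8 of the 69 (11.6%), beside 1.95% of all 27025 genes with a promoter window and 3.52% of the genes tested for expression. The YY1 core was found in 10 members (14.5%), beside 3.19% and 4.52%. The GABPA core was found in 5 members (7.25%), beside 4.31% and 7.71%. By complex, the YY1 core lay in 7 of 32 promoters of complex I and in 3 of 15 of complex V, and in none of those of complexes II, III and IV, while the NRF-1 core lay in 2 of 32, 0 of 3, 2 of 5, 1 of 14 and 3 of 15 promoters of complexes I to V. The windows reach past the transcription start. The YY1 core lay 22 to 38 bases after the start, except in *Atp5j* and *Atp5pb*, where it began before it. These matches describe the letters of the windows and are not binding data.

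The stretches below hold the NRF-1 core, in capitals, in the 8 members that have it, and are shown because a larger share of the members than of the genes tested holds it. Each is given 5′ to 3′ on the strand of the gene, at its position in GRCm39 found by exact match of the RefSeq window. Where a c follows the core, its reverse complement is present as well, shifted by 1 base. In *Ndufa8*, *Uqcr11* and *Atp5l* the capitals mark the reverse complement, which is there alone.
*Ndufa8*, complex I, chr2:35939340-35939369, minus strand: tcgctggagaCGCATGCGCagatggtaccg
*Ndufa11*, complex I, chr17:57024692-57024721, plus strand: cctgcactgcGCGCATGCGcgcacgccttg
*Uqcrc1*, complex III, chr9:108765736-108765765, plus strand: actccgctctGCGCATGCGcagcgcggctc
*Uqcr11*, complex III, chr10:80242641-80242670, minus strand: atcgccttcaCGCATGCGCtatacgtctgc
*Cox6a1*, complex IV, chr5:115487160-115487189, minus strand: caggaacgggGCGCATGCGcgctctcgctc
*Atp5g2*, complex V, chr15:102579505-102579534, minus strand: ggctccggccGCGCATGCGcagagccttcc
*Atp5k*, complex V, chr5:108582296-108582325, minus strand: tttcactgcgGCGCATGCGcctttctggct
*Atp5l*, complex V, chr9:44832261-44832290, minus strand: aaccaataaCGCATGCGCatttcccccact

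The YY1 core is shown, again in capitals, for 2 members each of complexes I and V, the complexes whose promoters hold it.
*Ndufa9*, complex I, chr6:126826060-126826089, minus strand: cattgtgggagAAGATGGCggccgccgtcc
*Ndufs7*, complex I, chr10:80085296-80085325, plus strand: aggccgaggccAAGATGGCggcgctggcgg
*Atp5j*, complex V, chr16:84631934-84631963, minus strand: aaagtgtaggaAAGATGGCggagtcttagc
*Atp5j2*, complex V, chr5:145128310-145128339, minus strand: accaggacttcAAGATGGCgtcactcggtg

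Between ESCs and NPCs, 59 of the 82 members tested were lower in NPCs at an adjusted p below 0.05 (edgeR's quasi-likelihood test, Benjamini-Hochberg adjustment over 16399 genes) and 0 were higher, where 31.9% of all genes were called lower and 37.5% higher. At an unadjusted p below 0.05 the count was 61 lower and 0 higher, beside 33.2% and 39.3% of all genes. The median log2 fold change of the members was -0.70, and that of all genes tested was 0.17. All 4 NPC libraries lay below all 4 ESC libraries in 52 members, and in 31.2% of all genes, and above them in 0 members and in 35.3% of all genes. With library totals, 27 members lay wholly below and 4 wholly above, beside 20.5% and 46.7% of all genes, and with housekeeping genes 21 and 7, beside 16.7% and 48.9%. DESeq2 called 59 members (71% of all genes in either direction) and limma-voom 60 (69.6%).

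How the libraries are scaled sets where a fold change of 1 lies, and it moved these counts. TMM factors were 0.82 to 0.885 in ESCs and 1.14 to 1.21 in NPCs. With library totals alone the median of all genes was 0.65, and 24 members were lower and 4 higher, beside 20.9% and 48.9% of all genes. Scaled to *Gapdh*, *Gusb* and *Tbp*, the housekeeping genes the study used for its RT-qPCR, the median of all genes was 0.80, and 17 members were lower and 6 higher, beside 17.2% and 51.6%. The members' median lay below that of all genes by 0.88 with TMM factors, and 80 of 82 members were below the median of all genes, the exceptions being *Ndufb2* and *Cox8c*. Since a scaling shifts all genes by nearly the same amount, this distance hardly depends on it by construction and is no sign of stability.

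**Figure D1:**
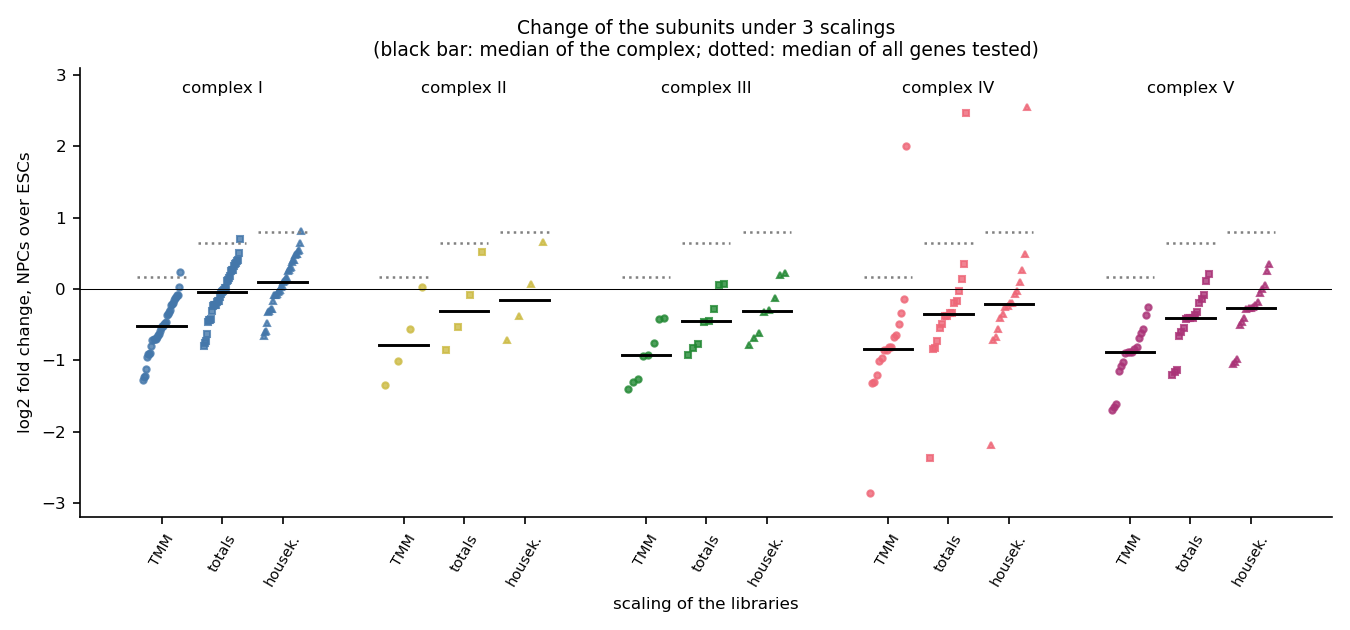
Log2 fold change of each member between NPCs and ESCs under TMM factors (circles), library totals (squares) and scaling to *Gapdh*, *Gusb* and *Tbp* (triangles), by complex. The black bars are medians of the complexes and the dotted lines medians of all genes tested, which rise from 0.17 to 0.65 and 0.80 as the bars rise by a like amount.

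The members lower under all 3 scalings were the 17 called with housekeeping genes, an overlap largely built in, since each scaling shifts all genes by near amounts, beside 17.2% of all genes lower with that scaling. They came from every complex, with *Ndufa11*, *Ndufb10*, *Ndufs1* and *Ndufv1* in complex I, *Sdha* and *Sdhd* in complex II, *Uqcr10*, *Uqcr11* and *Uqcrc1* in complex III, *Cox7a1* and *Cox7b* in complex IV, and *Atp5a1*, *Atp5b*, *Atp5g1*, *Atp5j*, *Atp5l* and *Atp5o* in complex V. Higher in NPCs under library totals were *Cox7a2l*, *Ndufa6*, *Ndufa13* and *Sdhc*, and the same 4 with *Ndufa2* and *Ndufb11* under housekeeping genes. None of these 6 was called with TMM factors, where their log2 fold changes lay between -0.16 (*Ndufb11*) and 0.03 (*Sdhc*).

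**Figure D2:**
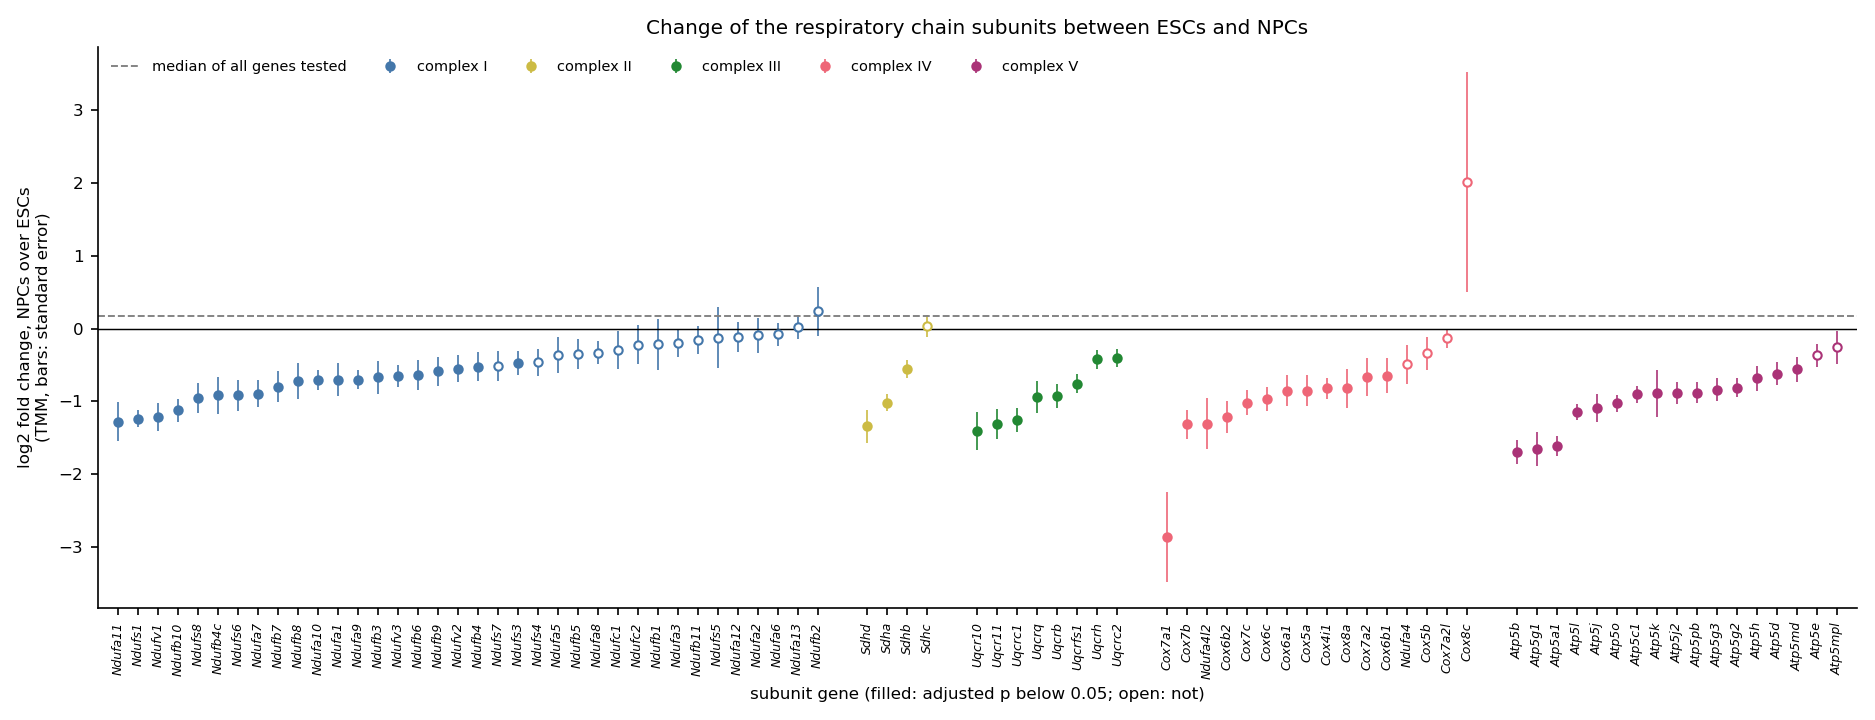
Log2 fold change between NPCs and ESCs, with its standard error, for 81 of the members tested, sorted within each complex on TMM-normalised counts. Filled points are members with an adjusted p below 0.05, all 58 of those drawn below 0, and the dashed line is the median of all genes tested, 0.17.

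Summed over its members, every complex was at a lower level in NPCs on the TMM scale. The sum over all 87 genes was 12880 ± 1383 CPM in ESCs and 6198 ± 887 CPM in NPCs (SD, n = 4 libraries each), a ratio of 0.481. It was 14280, 12520, 13610 and 11120 CPM in the ESC libraries and 7219, 5772, 6594 and 5209 CPM in the NPC libraries, each in the order B/J replicates 1 and 2 and J/B replicates 1 and 2, so that the stages did not overlap. The ratio was 0.39 for complex V, 0.532 for complex III, 0.542 for complex II, 0.594 for complex IV and 0.637 for complex I. It was nearer to 1 with library totals (0.67 over all members, 0.544 for complex V and 0.887 for complex I) and with housekeeping genes (0.742, 0.603 and 0.979).

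A share within a library does not depend on the scaling. Complex V held 55.29% ± 1.0 of the counts on all members in ESCs and 44.97% ± 1.56 in NPCs (SD, n = 4), between 54.66% and 56.77% in single ESC libraries and between 43.54% and 46.6% in single NPC libraries. The share of complex I was 18.19% ± 0.40 in ESCs and 24.0% ± 0.65 in NPCs, and that of complex IV was 13.38% ± 0.65 and 16.33% ± 1.25, in both cases without overlap of the stages. The shares of complexes II and III differed less (5.2% and 5.9%, 7.94% and 8.79%). Shares add up to a fixed total, so that those of the other complexes rise where that of complex V falls. Their rise is no sign of higher levels. Complex V without *Atp5a1* and *Atp5b* held 18.14% ± 0.93 of the counts in ESCs and 20.31% ± 0.27 in NPCs, and its summed level had a ratio of 0.54. Since *Atp5a1* and *Atp5b* stay in the total, their fall raises this share, which is no sign of a higher level.

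**Figure D3:**
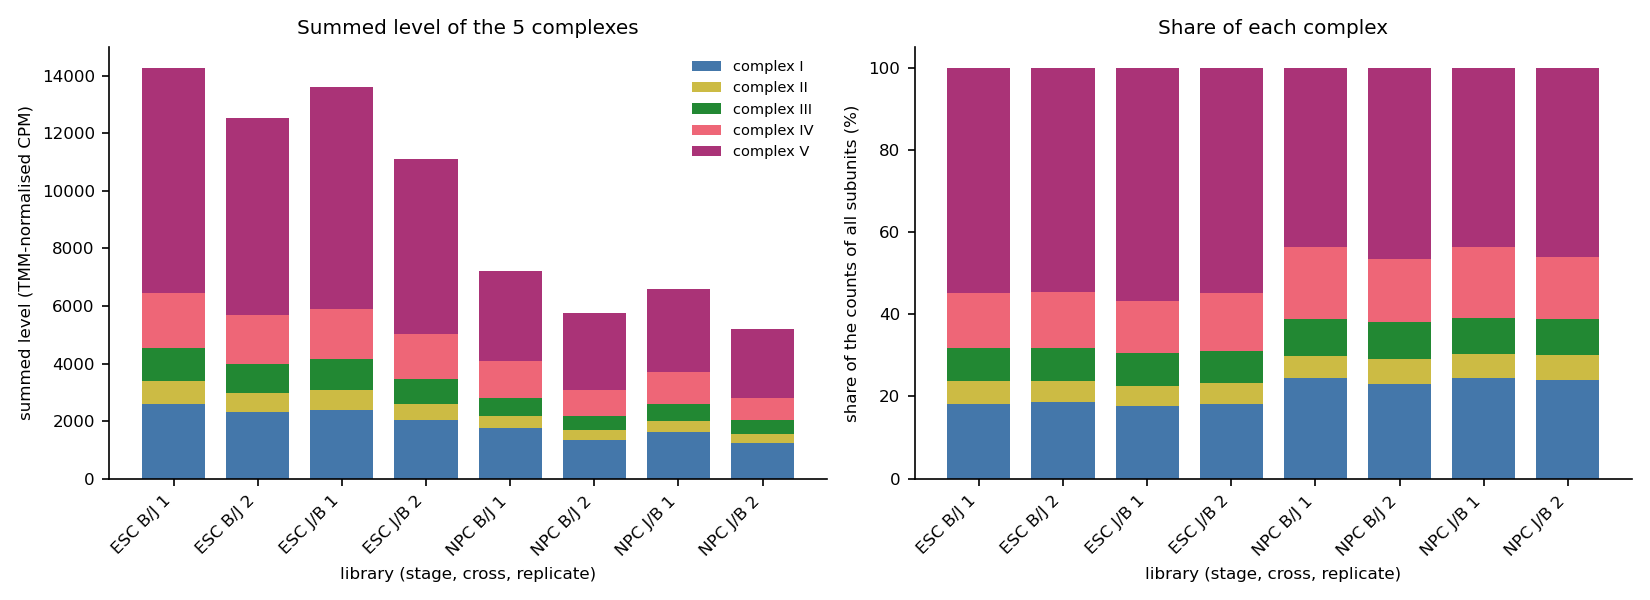
Summed TMM-normalised CPM of the members of each complex (left) and share of each complex in the counts on all 87 members (right), in each of the 8 libraries. The NPC libraries reach 5209 to 7219 CPM and the ESC libraries 11120 to 14280 CPM, and the share of complex V is smaller in the NPC libraries (43.54% to 46.6%) than in the ESC libraries (54.66% to 56.77%).

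In complex I, which has a matrix arm that holds the redox centres and a membrane arm that pumps protons, 21 of 37 members tested were lower in NPCs with TMM factors and 0 higher, with a median of -0.52. This median was -0.04 with library totals and turned to 0.10 with housekeeping genes, where 4 members were lower and 4 higher. For this and the other complexes the shares of all genes to set beside the counts are 20.9% lower and 48.9% higher with library totals, and 17.2% and 51.6% with housekeeping genes. The largest falls were those of *Ndufa11*, *Ndufs1* and *Ndufv1*.

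*Ndufs1* (chr1:63182058-63216236, minus strand, GRCm39), the large iron-sulfur subunit of the matrix arm, was at 195, 192, 195 and 169 CPM in the ESC libraries and at 81.7, 75.5, 84.0 and 77.0 CPM in the NPC libraries, in the order given above. The 2 stages were far apart and each was narrow, and the log2 fold change was -1.24 (SE 0.116, adjusted p = 7.18e-05, edgeR). *Ndufv1* (chr19:4057384-4062814, minus strand), which encodes the subunit that binds NADH and FMN, was at 257, 183, 229 and 160 CPM in ESCs and at 114, 85.1, 87.2 and 71.5 CPM in NPCs. Its log2 fold change was -1.22 (SE 0.191, adjusted p = 0.000831), and in ESCs both replicates 1 were above both replicates 2. *Ndufa11* (chr17:57024322-57031247, plus strand), an accessory subunit of the membrane arm, was at 103, 66.7, 105 and 69.8 CPM in ESCs and at 49.7, 28.7, 38.8 and 25.5 CPM in NPCs, a log2 fold change of -1.28 (SE 0.267, adjusted p = 0.00345).

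Among other core subunits of complex I, *Ndufs8*, a core subunit with iron-sulfur centres, had a log2 fold change of -0.95 (adjusted p = 0.00442, edgeR), which was not called with library totals (-0.47) or housekeeping genes (-0.32), and the changes of the core subunits *Ndufs3* and *Ndufv2* were -0.47 and -0.55, both called with TMM factors and both above 0 with housekeeping genes (0.16 and 0.06). *Ndufs7*, the core subunit next to the coenzyme Q site, missed the threshold (-0.51, adjusted p = 0.0534). Among the 16 members of complex I that did not pass, changes lay between -0.51 and 0.24. *Ndufa13* was at 39.1 ± 3.04 CPM in ESCs against 39.7 ± 7.64 CPM in NPCs, and *Ndufb2* at 12.7 ± 4.47 and 14.8 ± 5.26 CPM (SD, n = 4).

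In complex II, the succinate dehydrogenase that also works in the tricarboxylic acid cycle, 3 of 4 subunits were lower in NPCs with TMM factors, 2 lower and 1 higher with library totals or housekeeping genes. *Sdha* (chr13:74469359-74498436, minus strand), the flavoprotein that oxidises succinate, was at 379, 324, 327 and 297 CPM in ESCs and at 172, 166, 169 and 150 CPM in NPCs, a log2 fold change of -1.01 (SE 0.121, adjusted p = 0.000203, edgeR). *Sdhb* (chr4:140688502-140709380, plus strand), the iron-sulfur subunit, was at 78.8, 79.5, 69.3 and 68.8 CPM in ESCs and at 55.3, 45.4, 53.4 and 47.2 CPM in NPCs. Its change of -0.56 (SE 0.128, adjusted p = 0.00539) was not called with library totals (-0.08) and was 0.07 with housekeeping genes.

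*Sdhc* and *Sdhd* encode the 2 membrane anchors, which sit in the complex in equal number. *Sdhd* (chr9:50507642-50515195, minus strand) was at 258, 165, 215 and 137 CPM in ESCs and at 86.6, 69.9, 86.8 and 61.2 CPM in NPCs, a log2 fold change of -1.34 (SE 0.225, adjusted p = 0.00116, edgeR). *Sdhc* (chr1:170954732-170978223, minus strand) was at 83.5, 73.3, 72.1 and 59.8 CPM in ESCs and at 77.2, 65.6, 86.4 and 65.2 CPM in NPCs, and the stages overlapped. Its change was 0.03 (SE 0.15, adjusted p = 0.847) with TMM factors, 0.51 (adjusted p = 0.0128) with library totals and 0.66 (adjusted p = 0.00272) with housekeeping genes. The ratio of *Sdhd* to *Sdhc* counts within a library, which no scaling changes, was 2.66 ± 0.443 in ESCs and 1.03 ± 0.0789 in NPCs (SD, n = 4), with values of 3.09, 2.26, 2.98 and 2.29 and of 1.12, 1.06, 1 and 0.938. This pair and the other ratios of subunits within a complex were chosen after their values were seen and are given without a test.

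**Figure D4:**
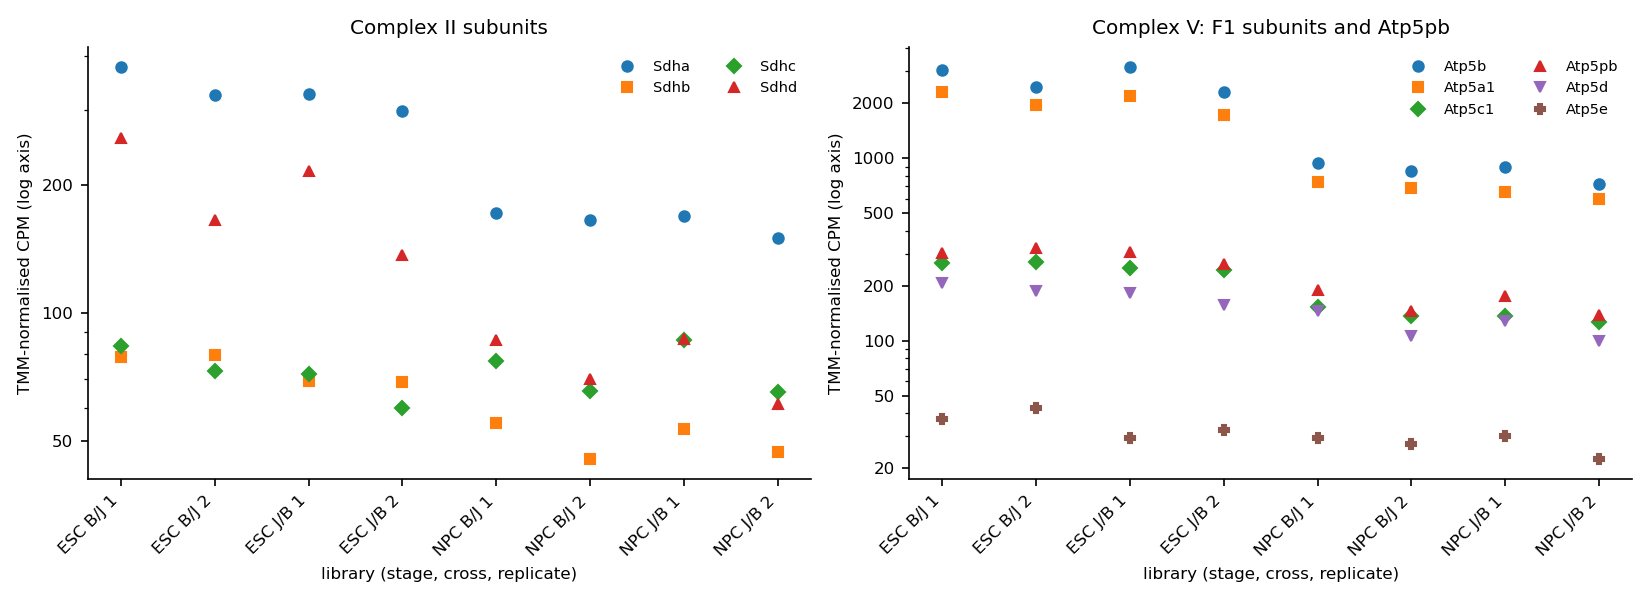
TMM-normalised CPM, on log axes, of the 4 subunits of complex II (left) and of the F1 subunits and *Atp5pb* of complex V (right) in each library. *Sdhd* lies well above *Sdhc* in the ESC libraries and close to it in the NPC libraries, and *Atp5b* and *Atp5a1* fall from 1722 to 3174 CPM in ESCs to 597 to 936 CPM in NPCs.

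In complex III, which passes electrons from coenzyme Q to cytochrome c, all 8 members were lower in NPCs with TMM factors (median -0.93), 4 with library totals and 3 with housekeeping genes. *Uqcrc1* (chr9:108765701-108778710, plus strand), a core protein on the matrix side, was at 347, 277, 348 and 246 CPM in ESCs and at 152, 124, 125 and 110 CPM in NPCs, a log2 fold change of -1.26 (SE 0.165, adjusted p = 0.00033, edgeR). The second core protein, *Uqcrc2*, changed by -0.40 (adjusted p = 0.0196) under TMM factors, 0.07 under library totals and 0.22 under housekeeping genes. The *Uqcrc1* to *Uqcrc2* ratio of counts was 2.05 ± 0.31 in ESCs and 1.14 ± 0.0479 in NPCs (SD, n = 4).

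The small subunits *Uqcr10* and *Uqcr11* had the largest changes of complex III. *Uqcr10* (chr11:4651968-4654653, minus strand) was at 138, 94.7, 128 and 78.8 CPM in ESCs and at 56.7, 35.1, 45.1 and 29.1 CPM in NPCs (log2 fold change -1.41, SE 0.261, adjusted p = 0.00191, edgeR). *Uqcr11* (chr10:80236542-80242676, minus strand) was at 82.2, 55.0, 61.4 and 49.1 CPM in ESCs and at 27.6, 20.7, 30 and 20.9 CPM in NPCs (-1.31, SE 0.211, adjusted p = 0.00093). *Uqcrfs1*, the Rieske iron-sulfur protein, changed by -0.75 (adjusted p = 0.00139), and this call was lost with library totals (-0.28) and with housekeeping genes (-0.13).

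In complex IV, cytochrome c oxidase, 12 of 16 members tested were lower in NPCs and 0 higher with TMM factors (median -0.84), 5 lower and 1 higher with library totals, and 2 lower and 1 higher with housekeeping genes. *Cox7b* (chrX:105055638-105066240, plus strand), a small subunit, was at 133, 128, 118 and 125 CPM in ESCs and at 63.5, 40.7, 59.5 and 38.5 CPM in NPCs, a log2 fold change of -1.32 (SE 0.197, adjusted p = 0.000642, edgeR). *Cox4i1*, the main form of subunit 4, was at 331 ± 32 CPM in ESCs against 188 ± 30.7 CPM in NPCs (SD, n = 4), a change of -0.82 (adjusted p = 0.0016) that was not called with library totals (-0.34) or housekeeping genes (-0.20). *Cox7c*, *Cox6c*, *Cox6a1*, *Cox5a* and *Cox8a* changed by between -1.02 and -0.82, each called with TMM factors, and of these *Cox7c* and *Cox6c* were called with library totals and none with housekeeping genes. *Cox5b* and *Ndufa4* were not called (-0.34 and -0.49).

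*Cox7a1* (chr7:29883569-29885503, plus strand), the isoform of subunit 7a known from heart and skeletal muscle, had the largest change of any member called, at a low level. It was at 10.3, 4.28, 15.8 and 2.43 CPM in ESCs and at 1.05, 1.31, 1.13 and 0.969 CPM in NPCs. Both ESC replicates 1 were above both ESC replicates 2, and all were above the NPC libraries. The log2 fold change was -2.87 (SE 0.619, adjusted p = 0.00408, edgeR), and it was called under each alternative run for it. Markers of striated and cardiac muscle, tissues in which this isoform is known, summed to 11.7 to 18 CPM in ESC libraries and 19.6 to 52.5 CPM in NPC libraries, with 6 of 10 tested higher and 3 lower in NPCs, and *Myl2* at 0 in all NPC libraries.

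Several subunits of complex IV, and the c subunit of ATP synthase, have isoforms encoded by separate genes, and the ratio of such a pair within a library is free of the scaling. For 11 pairs the log2 ratio was compared between 4 NPC and 4 ESC libraries by a two-sided exact permutation test, whose smallest possible p is 0.0286. Over 11 pairs an adjusted p below 0.05 would take at least 7 pairs at that p, so no single pair could reach it, and in 1 pair, *Cox8b* to *Cox8a*, *Cox8b* had 0 counts and the ratio holds the pseudocount alone. *Cox7a1* to *Cox7a2*, the latter the form found in most tissues, stood at 17.8%, 9.57%, 28.2% and 4.37% in ESCs and at 2.66%, 5.99%, 2.36% and 3.75% in NPCs (log2 difference -1.79, p = 0.0571, adjusted p = 0.21, exact permutation test), and the stages overlapped. *Cox6b2*, known from testis, to *Cox6b1* stood at 24.1% to 29.2% in ESCs and at 9.34%, 25.6%, 16.9% and 28.4% in NPCs, where both replicates 1 were below both replicates 2 (p = 0.257, adjusted p = 0.471, exact permutation test).

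*Cox7a2l*, which encodes a factor that joins complexes III and IV and is not a replacement for *Cox7a2*, was at 147 ± 15.1 CPM in ESCs against 134 ± 16.2 CPM in NPCs, and its ratio to *Cox7a2* was 1.46 ± 0.20 in ESCs and 2.06 ± 0.50 in NPCs on the log2 scale (SD, n = 4, p = 0.114, adjusted p = 0.314, exact permutation test). *Ndufa4l2* (chr10:127350818-127353038, plus strand), known as a gene induced in low oxygen, was at 4.9, 5.43, 2.67 and 1.49 CPM in ESCs and at 1.94, 1.69, 1.07 and 0.84 CPM in NPCs. The stages overlapped, its change of -1.31 (SE 0.349, adjusted p = 0.0107, edgeR) was not called with library totals (-0.83) or housekeeping genes (-0.68), and its ratio to *Ndufa4* differed by -0.76 on the log2 scale (p = 0.2, adjusted p = 0.44, exact permutation test).

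The tissue-restricted forms *Cox4i2*, *Cox6a2*, *Cox7b2* and *Cox8b*, and *Ndufa11b* of complex I, did not have enough counts for a test. *Cox8b* and *Ndufa11b* had 0 counts in all 8 libraries, which allows a level of up to 0.0136 CPM over all of them, taking 3 counts as the limit. *Cox6a2*, a muscle form, had 0 counts in ESCs and 6 in NPCs (0.0519 CPM, 95% exact Poisson interval 0.019 to 0.113), and its pair with *Cox6a1* reached the smallest possible p through these 6 counts (adjusted p = 0.157, exact permutation test). *Cox4i2* had 19 counts in ESCs and 19 in NPCs, at most 0.15% of *Cox4i1* in any library. *Cox7b2* had 8 and 18 counts, and *Cox8c*, which passed the filter, had 11 and 79. Of the NPC counts, 13 of 18 for *Cox7b2* and 49 of 79 for *Cox8c* lay in 1 library, and NPC replicates 2 of both crosses had 0 counts of either gene. The log2 fold change of *Cox8c* was 2.01 (SE 1.51, adjusted p = 0.263, edgeR). These intervals and limits cover counting error alone, since copies made by PCR cannot be recognised in the counts.

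In complex V, 15 of 17 members were lower in NPCs and 0 higher with TMM factors (median -0.88), 9 lower with library totals and 6 lower with housekeeping genes. ATP synthase has a soluble catalytic head, F1, in which 3 copies each of the alpha and beta subunits alternate around a central stalk, and a membrane part, Fo, with a ring of c subunits. *Atp5a1* and *Atp5b*, which encode alpha and beta, were the most abundant members by counts and 2 of the 3 with the largest changes in this complex.

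*Atp5b* (*Atp5f1b* in GENCODE, chr10:127919132-127926261, plus strand), which encodes the beta subunit that makes ATP, was at 3035, 2468, 3174 and 2301 CPM in ESCs and at 936, 847, 894 and 723 CPM in NPCs. The stages were far apart, and the log2 fold change was -1.69 (SE 0.161, adjusted p = 7.56e-05, edgeR), -1.21 with library totals and -1.06 with housekeeping genes. *Atp5a1*, which encodes alpha, was at 2316, 1968, 2202 and 1722 CPM in ESCs and at 744, 688, 652 and 597 CPM in NPCs, a change of -1.62 (SE 0.136, adjusted p = 4.83e-05), -1.14 and -0.98 under the same scalings. The ratio of *Atp5a1* to *Atp5b* counts was 0.751 ± 0.0431 in ESCs and 0.79 ± 0.0426 in NPCs (SD, n = 4), with overlap of the stages.

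Among the other subunits, *Atp5c1*, the gamma subunit of the central stalk, changed by -0.90 (adjusted p = 0.000247, edgeR), *Atp5pb*, the b subunit of the side stalk, by -0.88 (adjusted p = 0.00115), and *Atp5d*, the delta subunit, by -0.62 (adjusted p = 0.00818). With library totals, *Atp5c1* (-0.43) and *Atp5pb* (-0.40) were called and *Atp5d* (-0.14) was not. None of these 3 was called with housekeeping genes (-0.28 for *Atp5c1* and -0.26 for *Atp5pb*). The change of *Atp5d* was 0.0037 with housekeeping genes. *Atp5e*, the epsilon subunit, was not called (-0.37, adjusted p = 0.0698). The ratio of *Atp5b* to *Atp5pb* counts was 9.22 ± 1.21 in ESCs and 5.28 ± 0.403 in NPCs, and that of *Atp5b* to *Atp5c1* was 10.6 ± 1.68 and 6.15 ± 0.355 (SD, n = 4), each without overlap of the stages.

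*Atp5g1*, *Atp5g2* and *Atp5g3* (*Atp5mc1*, *Atp5mc2* and *Atp5mc3* in GENCODE) encode the same mature c subunit with different import signals. *Atp5g1* (chr11:95959678-95966757, minus strand) was at 206, 145, 219 and 136 CPM in ESCs and at 74.9, 49.8, 58.8 and 42.6 CPM in NPCs, a log2 fold change of -1.65 (SE 0.235, adjusted p = 0.000527, edgeR). *Atp5g2* changed by -0.81 (adjusted p = 0.00102) and *Atp5g3* by -0.84 (adjusted p = 0.00228), and neither was called with library totals or housekeeping genes. *Atp5g1* stood at 68.7%, 40.3%, 67.0% and 41.2% of *Atp5g3* in ESCs and at 33.7%, 31.1%, 29.1% and 28.0% in NPCs, without overlap (log2 difference -0.79, p = 0.0286, adjusted p = 0.157, exact permutation test). *Atp5g2* stood at 50.3% to 71.9% and at 47.1% to 70.7%. Of the 50-base windows of their GRCm39 transcripts, 84.4% in *Atp5g1* and 88.4% in *Atp5g2* occur elsewhere in the genome, and 0% in *Atp5g3*, so that the levels of the first 2 are uncertain under the authors' filter on mapping quality.

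The same count of copied windows was 0 in 33 of the 85 members with a transcript and over 50% in 7, namely *Atp5g1*, *Atp5g2*, *Atp5l* (68.7%), *Cox7c* (71.5%), *Ndufb4c* (100%), *Ndufs5* (75.5%) and *Uqcrb* (58.7%). Since every window of *Ndufb4c* is copied elsewhere, its counts are uncertain. Of the genes described in full above, *Ndufv1*, *Sdha*, *Sdhd*, *Uqcr10*, *Uqcrc1* and *Cox7a1* had 0%, and *Atp5b* had 0.852%. Higher shares were found in *Sdhc* (1.1%), *Sdhb* (1.4%), *Ndufs1* (1.8%), *Ndufa11* (4.4%), *Cox7b* (6.4%) and *Uqcr11* (10.5%).

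Levels can be set beside each other only per transcript length, as counts per kilobase scaled to a fixed total over the 23711 genes with a length. *Atp5b* ranked first of the members with a length in both stages whether the length was that of all annotated exons, of the longest transcript or of the canonical transcript, and with the latter it was at 3087 ± 356 in ESCs and 1483 ± 79.7 in NPCs (SD, n = 4). With the canonical transcript, *Cox4i1* was next (916 ± 46.9 in ESCs and 803 ± 78.4 in NPCs), followed by *Atp5g3* (726 ± 78 and 624 ± 77) and *Cox8a* (633 ± 130 and 557 ± 159), of which the last pair did not differ beyond their spread. With all exons the next were *Cox6a1* and *Cox8a*. Complex I had the lowest median of the 5 complexes with each length in both stages (103 in ESCs and 115 in NPCs with the canonical transcript), and the order of the other complexes changed with the length used. *Atp5a1* and *Atp5mpl* had no matched transcript and are not in this ranking. On this scale, which is relative to all other genes of a library, the median of complex I was higher in NPCs than in ESCs with each length. Those of complexes III and IV were higher in NPCs with the canonical transcript (141 and 158, 266 and 322) and lower with the longest transcript (167 and 156, 101 and 98.1) and with all exons (180 and 141, 114 and 79.8), ESCs given first in each pair. Such a median can rest on different genes in each stage. With the canonical transcript, only *Uqcrc2* and *Uqcrh* of complex III were higher in NPCs. Of the complex IV members tested, only *Cox5b*, *Cox7a2l*, *Cox8c* and *Ndufa4* were higher, and the rest were lower.

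Within the B/J cross, 40 members were lower in NPCs and 0 higher, beside 25.6% and 30.1% of all genes (55.8% called in either direction), and within J/B 35 were lower and 0 higher, beside 25.3% and 29.1% (54.5% in either direction, edgeR). Both crosses shared 32 of these, 80% of the B/J list and 91.4% of the J/B list. The same overlap over all genes was not counted, so that these shares cannot be called particular to the members. Each count depended on single libraries, and the share of all genes called lower was smaller without them as well. Without NPC B/J replicate 2 the B/J count was 16 (17.8% of all genes lower), and without ESC B/J replicate 1 it was 23 (17.1%). Without NPC J/B replicate 2 the J/B count was 13 (15.3%), and without ESC J/B replicate 1 it was 21 (19.6%). With a replicate term fitted separately in each stage, an alternative chosen after seeing the data, the counts were 66 in B/J (31.8% of all genes lower) and 58 for J/B cells (31.4%). The members' median log2 fold change was -0.76 for B/J and -0.65 for J/B cells, and the 3 members with the largest falls of complex V had near values in each (*Atp5b* -1.63 and -1.76, *Atp5a1* -1.58 and -1.65, *Atp5g1* -1.49 and -1.80).

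A difference between the crosses in the stage change was called for 0 members and in 0% of all genes, with 0 members at an unadjusted p below 0.05 (3.49% of all genes). The interaction had values between -0.49 and 0.62 over the members, and the member with the smallest p was *Uqcrh* (0.34, SE 0.265, adjusted p = 1, edgeR). In ESCs, J/B against B/J gave 0 members (0% of all genes), with 1 at an unadjusted p below 0.05 (2.11%). This was *Ndufa4l2* (-1.31, SE 0.491, adjusted p = 1, edgeR). In NPCs it gave 0 members (0.0061% of all genes), with 0 at an unadjusted p below 0.05 (6.4%). DESeq2 and limma-voom also called 0 members in these 3 comparisons. In the same order, DESeq2 called 0.0671%, 0.061% and 0.427% of all genes, and limma-voom 0%, 0% and 0.0061%. By point estimate, 78 of 82 members were lower in J/B ESCs (median -0.15, all genes 0.00) and 63 of 82 in J/B NPCs (median -0.11, all genes 0.01). The direction in NPCs depended on single libraries. The members' median there was 0.085 without B/J replicate 1 and 0.077 without J/B replicate 2. It was -0.29 without B/J replicate 2 and -0.34 without J/B replicate 1. In ESCs the median lay between -0.28 and -0.094 with 1 ESC library left out.

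Replicate number moved with the members' levels. Replicate 2 was lower than replicate 1 in 51 of 82 members in B/J ESCs, 60 in J/B ESCs, 78 in B/J NPCs and 80 in J/B NPCs, where 47.5% to 50.6% of all genes were lower. The median differences were -0.17, -0.23, -0.42 and -0.41 on the log2 scale, beside -0.006 to 0.003 for all genes. By the mean of both crosses, *Ndufs5*, *Cox8c*, *Atp5k* and *Ndufc2* differed most in NPCs, by -1.38, -1.44, -0.75 and -0.78 among B/J and by -1.15, -1.81, -0.99 and -1.03 among J/B libraries. No single member was called for the replicate number within ESCs or within NPCs, where 2.43% and 0.335% of all genes were. The libraries of number 1 alone gave 32 members lower in NPCs (22.2% of all genes lower) and those of number 2 alone 73 (35.3%). No member was higher in either, beside 26.5% and 40.2% of all genes. Other values moved with the number. The share of reads on no feature was higher in replicate 2 of every group (5.76% and 6.02% in B/J ESCs, 6.65% and 8.44% in J/B ESCs, 7.71% and 9.05% in B/J NPCs, 8.35% and 10.9% in J/B NPCs). Across the 80 members with a length, the difference between replicates and transcript length had a Spearman's rho between 0.179 and 0.313 in the 4 groups, a description over genes that share a pair of libraries. Summed pluripotency markers were at 9660 and 7480 CPM in B/J and 10600 and 6490 CPM in J/B ESC replicates 1 and 2, with *Esrrb* at 1200, 592, 1030 and 488 CPM in the same order. In NPC replicates 1 and 2, neuron markers summed to 346 and 1200 CPM in B/J and 911 and 1820 CPM in J/B cells, and trophoblast markers to 3150 and 1670 CPM and to 1700 and 1150 CPM. The part of these values in the replicate difference was not tested. Library kit and instrument, of which the study used 2 each, are not given per library in the sources used here.

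Related genes were taken from lists of assembly factors, carriers, enzymes and regulators. Of complex I assembly factors, which build the complex and are not part of it, 12 of 19 tested were lower in NPCs and 0 higher, among them *Ecsit* (log2 fold change -1.90, adjusted p = 4.03e-05, edgeR), *Ndufaf4* (-1.48, adjusted p = 0.000143) and *Aifm1* (-1.22, adjusted p = 0.000255). That list also held the acyl carrier subunit *Ndufab1*, which was not called (-0.34, adjusted p = 0.284). Of the assembly factors of complexes II to V, 13 of 34 were lower and 3 higher. The higher ones were *Sdhaf4* of complex II (1.05), *Ttc19* of complex III (0.94) and *Cox19*, which serves copper delivery to complex IV (0.81), while *Coa7* (-1.54), *Coa6* (-1.34), *Bcs1l* (-1.34), *Sco1* (-1.27) and *Atpaf2* (-1.15) were lower.

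Of the electron carriers and enzymes of coenzyme Q synthesis, 12 of 19 were lower and 3 higher. *Cycs*, the somatic cytochrome c, was at 206 ± 18.9 CPM in ESCs against 96.4 ± 15.4 CPM in NPCs (SD, n = 4, log2 fold change -1.09, adjusted p = 0.000526, edgeR), and *Cyct*, the form known from testis, was at 9.01 ± 4.06 and 0.926 ± 0.794 CPM (-3.43, adjusted p = 0.00108). *Cyc1*, the cytochrome subunit of complex III, changed by -1.61 (adjusted p = 9.6e-05), more than any complex III gene within the symbol rule. *Pdss1*, which starts the coenzyme Q side chain, changed by -2.26 (adjusted p = 4.19e-05), and *Coq2*, *Coq8b* and *Coq10a* were higher (0.47, 0.62 and 0.66). Of tricarboxylic acid cycle and pyruvate dehydrogenase genes, 15 of 18 were lower and 0 higher (median -0.95), with *Idh3a* at -1.55 and *Cs*, citrate synthase, at -1.01, and *Dlst*, *Dld* and *Sucla2* not called.

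Among 20 regulators of respiratory genes, 13 were lower and 2 higher. Lower were *Pprc1*, a coactivator of the PGC-1 family (465 ± 71.1 CPM in ESCs and 106 ± 16.9 CPM in NPCs, SD, n = 4, log2 fold change -2.14, adjusted p = 4.39e-05, edgeR), *Gabpa* (-1.40), *Nrf1*, which encodes NRF-1 (-1.03), and *Tfam*, *Polrmt* and *Twnk*, which copy or transcribe mitochondrial DNA (-1.15, -1.28 and -1.53). *Yy1* was not called with TMM factors (162 ± 21.7 and 158 ± 13.3 CPM, adjusted p = 0.81) and was higher with library totals (0.43, adjusted p = 0.0304) and housekeeping genes (0.58, adjusted p = 0.0165). The higher ones were *Ppargc1a* and *Esrrg*, from 0.0432 ± 0.0614 and 0.0694 ± 0.0588 CPM in ESCs to 1.72 ± 1.6 and 5.95 ± 2.97 CPM in NPCs, and *Esrrb*, also a pluripotency marker, was lower (-6.12). Of 14 hypoxia and glycolysis genes tested, 4 were higher (*Vegfa*, *Egln1*, *Bnip3* and *Slc2a1*) and 5 lower (*Pfkp*, *Hk2*, *Ndufa4l2*, *Pdk1* and *Ldha*), so that glycolytic enzymes such as *Hk2* (-2.05) and *Ldha* (-1.06) were also among the genes with lower levels in NPCs. The 13 subunits encoded in mitochondrial DNA have no rows among the genes counted and were not analysed here. These counts, made with TMM factors, stand beside 31.9% of all genes lower and 37.5% higher.

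The scaling moved these lists as it moved the members, with 20.9% of all genes lower and 48.9% higher under library totals and 17.2% and 51.6% under housekeeping genes. With library totals, 5 complex I assembly factors were lower and 2 higher, and with housekeeping genes 3 and 3. Of the assembly factors of complexes II to V, 5 were lower under either scaling, with 8 and 9 higher. The carriers and coenzyme Q enzymes had 6 lower and 4 higher, then 5 and 6, the tricarboxylic acid cycle 10 and 0, then 8 and 1, and the regulators 10 and 4, then 8 and 5. The median of the assembly factors of complexes II to V turned from -0.50 to 0.13 with housekeeping genes and that of the hypoxia and glycolysis genes from -0.27 to 0.37, while the other 4 list medians were below 0 under each of the 3 scalings. The genes of these lists named above as lower were called lower under all 3, except *Ndufa4l2*.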

How the data were processed

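Raw counts per gene of 8 RNA-seq libraries were used as deposited. The authors had aligned paired-end reads with TopHat2 to mm39 masked at JF1 variants, and kept proper pairs above a mapping quality limit. HTSeq, DESeq2 and edgeR are named in the submitters' processing notes without their versions. Whether counting used strand, and which of 2 library kits and 2 instruments served each library, are points not given in the sources used here. Closing lines, such as reads on no feature, were left out of the totals. Counts were tested with edgeR 4.0.16 (quasi-likelihood, robust, TMM factors, minimum count 10) in R 4.3.3 on 4 group means, with Benjamini-Hochberg adjustment over 16399 genes, threshold 0.05. The same fit was run on simulated counts in which few genes changed, unlike here. That run cannot show how the calls depend on the scaling. DESeq2 1.42.0 and limma 3.58.1 were alternatives. Isoform ratios used a pseudocount of 0.5. Named in full, by rule, were the 3 members of each complex with the largest falls and rises among those called at a mean of at least 1 CPM, isoform pairs, complex II and the members not tested. One member is counted in the totals but not reported singly here. Members and lists were chosen with earlier results of these data known. Transcripts and positions are from GENCODE for GRCm39. Promoters are from RefSeq, of which 69 members had a window.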

Additional observations from a re-analysis of the deposited data

Results flagged for a closer look

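Within each stage, the 4 libraries of the members reported singly were checked for 1 library far from the other 3 by Dixon's test at the 95% level, which chance would pass in about 1 in 20 groups. Of 162 such groups, 6 passed. In ESCs, *Atp5j2* was at 113 CPM in B/J replicate 2 (others 90 to 93.3), *Cox5b* at 114 CPM in B/J replicate 1 (others 89.7 to 90) and *Ndufa13* at 43.6 CPM in B/J replicate 1 (others 37.2 to 38.2). J/B replicate 2 stood below the other ESC libraries in *Ndufs1* (169 CPM, others 192 to 195). In NPCs, *Cox6b2* was at 10.9 CPM in B/J replicate 1 (others 16.5 to 17.7) and *Ndufa9* at 48.2 CPM in J/B replicate 2 (others 55.8 to 56.0).

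Ndufs5-ps, a pseudogene that the symbol rule leaves out, had up to 228 counts in a library (NPC B/J replicate 2). Its counts were 91, 219, 57 and 156 in ESCs and 195, 228, 183 and 212 in NPCs, in the order B/J replicates 1 and 2 and J/B replicates 1 and 2. Of the windows of *Ndufs5*, 75.5% occur elsewhere in the genome.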

How the results depend on the processing

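The count of members lower in NPCs (59) was 24 with library totals (20.9% of all genes lower), 17 with housekeeping genes (17.2%), 20 with a 2-fold change in addition (20.6%) and 32 with the libraries of number 1 alone (22.2%), and between 44 and 62 with 1 library left out (26.9% to 29.5%). Members higher (0) were 4 with library totals and 6 with housekeeping genes (48.9% and 51.6% of all genes higher). Within B/J (40 lower) the counts were 15, 15 and 22 with library totals, housekeeping genes and the 2-fold limit (15.8%, 14.2% and 19% of all genes lower), and 16 to 42 with 1 library left out (17.1% to 25%). Within J/B (35 lower) they were 13, 5 and 17 (15.2%, 10.9% and 18.7%), and 13 to 37 (15.3% to 23.8%), and 1 and 4 members were higher with library totals and housekeeping genes (39.2% and 44.3%). The difference between the medians of members and of all genes (-0.88) was -1.09 without the filter on low counts, and -1.05 to -0.76 with 1 library left out. The cause of these shifts was not tested.

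Log2 fold changes were below 0 for 78 of 82 members under TMM factors, for 58 under library totals and for 49 under housekeeping genes. Among members called under either scaling compared, those above 0 with housekeeping genes included *Atp5d* 0.0037, *Atp5md* 0.057, *Cox7a2l* 0.50, *Ndufa2* 0.53, *Ndufa6* 0.55, *Ndufb11* 0.47, *Ndufb4* 0.10, *Ndufb9* 0.022, *Ndufs3* 0.16, *Ndufv2* 0.061, *Sdhb* 0.067, *Uqcrc2* 0.22 and *Uqcrh* 0.20. With library totals they included *Cox7a2l* 0.35, *Ndufa6* 0.40, *Ndufs3* 0.0087, *Uqcrc2* 0.073 and *Uqcrh* 0.053, and with the libraries of number 2 alone *Ndufb2* was at -0.59. The summed level of complexes II, III and IV had ratios of 0.756, 0.742 and 0.826 with library totals and 0.84, 0.82 and 0.908 with housekeeping genes. The share of complex V in the summed level per length, over the 85 members with a length, was 35.5% in ESCs and 28.4% in NPCs with all exons, 43.9% in ESCs and 35.8% in NPCs with the longest transcript and 38.4% and 31.7% with the canonical transcript, a length added after seeing the data. *Atp5a1* and *Atp5mpl* have no length here, and over the same 85 members complex V held 46.7% ± 1.09 of the counts in ESCs and 38% ± 1.15 in NPCs (SD, n = 4).

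The replicate numbers tied the crosses within a stage, where deviations from the group means correlated (0.613 in ESCs and 0.507 in NPCs over all genes, 0.817 and 0.813 over the members), but did not pair ESCs with NPCs (0.0474 to 0.0919 over all genes). With the replicate block the counts lower in NPCs were 62 over both crosses, 57 within B/J and 52 within J/B (33.3%, 28.1% and 27.5% of all genes). With a replicate block fitted in each stage on its own, an alternative chosen after seeing the data, they were 68, 66 and 58 (35.9%, 31.8% and 31.4%). Within numbers, the smallest p an isoform pair could reach by permutation was 0.0556. At these depths, few or no counts do not tell low expression of the tissue-restricted forms from none.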
